A study of Mus musculus with 8 samples.

Results

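Chd7 lies on mouse chromosome 4 and encodes a chromatin remodeller. In H3K27ac CUT&RUN of primary myotubes labelled as Nrip1 knockout (KO), 22 regions in and around this gene were called as decreased and 2 as increased. These 24 regions are described here, out of 877 differential regions on chromosome 4 and 11180 in the whole series. They were chosen by their position. A region was taken when it lay inside Chd7, when Chd7 was the protein-coding gene with the start nearest to its centre, or when its centre lay within 500 kb of the gene body. The locus was itself selected on how many decreased regions it held, so its counts are a description and carry no test.

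H3K27ac, the acetylation of lysine 27 of histone H3, marks active promoters and enhancers, and in CUT&RUN an antibody against it guides a nuclease so that marked DNA is released and sequenced. CHD7 is an ATP-dependent remodeller of the chromodomain helicase DNA-binding (CHD) family. It slides nucleosomes, is known to occupy enhancers as well as promoters, and its loss of function causes CHARGE syndrome, a disorder of neural crest and organ development. Nrip1 encodes RIP140, a coregulator of nuclear receptors that recruits repressors and is known in muscle for limiting oxidative metabolism.

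The study made 8 libraries in 4 groups of 2, which were Nrip1KO and control myotubes, each with an H3K27ac antibody and with control IgG. Both genotypes carried floxed Nrip1 alleles (Nrip1 fl/fl, C57BL/6J background, loxP sites around the exon that holds the coding sequence). Cre was driven by the muscle creatine kinase (MCK) promoter, which is active in heart and differentiated skeletal muscle, and the controls were littermates without Cre. For mouse work in general the methods give male or female animals aged 8 to 16 weeks, without naming the donors of these cultures. Satellite cells, the stem cells of muscle, came from gastrocnemius and were passaged before they were differentiated in low serum for 4 days, so the myotubes are a culture model in which the promoter of the Cre acts late. The values are 2 lists of positions that the authors called as 2-fold or more lower or higher in KO. They hold no value per library and no measure of how complete the loss of Nrip1 was. How deep each library was, how large each change was, how far replicates differed and how high the IgG signal lay are therefore unknown here. Marker genes of the cells could not be looked up either, and every count below stands without replicate error.

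Chd7 (ENSMUSG00000041235.12) is read from the plus strand and occupies chr4:8690406-8867659 in mm10, a length of 177254 bp with 8 annotated transcripts in GENCODE M21. The window of the gene with 500 kb on each side holds 3 other protein-coding genes. These are Car8, a carbonic anhydrase-related protein without catalytic activity, and Rab2a, a small GTPase of transport between endoplasmic reticulum and Golgi, both upstream, and Clvs1, a clathrin vesicle protein of the clavesin family, downstream. The regions are numbered 1 to 24 along the chromosome.

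The sequences below are taken from 3 decreased regions outside the gene and are read from the plus strand of GRCm38.p6, the assembly behind mm10. They stand for the widest region (19), the region with the most kinds of motif in its central 500 bp (21) and the one with the most CpG pairs (8), the last chosen after its values were seen. Capitals mark motif letters in the second and every CG pair in the last. Each is the central stretch of its region, and the stretch from region 19 held none of the motifs searched. Of the 3 kinds of motif in region 21, AP-1 (defined below) lies before the printed stretch.
Region 19, downstream of Chd7, chr4:8962414-8962713: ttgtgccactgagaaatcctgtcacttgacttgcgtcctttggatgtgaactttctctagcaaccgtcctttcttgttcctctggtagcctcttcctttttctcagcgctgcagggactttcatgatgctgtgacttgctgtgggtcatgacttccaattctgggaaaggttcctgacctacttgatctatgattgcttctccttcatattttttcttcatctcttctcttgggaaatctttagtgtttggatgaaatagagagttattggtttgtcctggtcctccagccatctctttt
Region 21, downstream of Chd7, chr4:9025510-9025809: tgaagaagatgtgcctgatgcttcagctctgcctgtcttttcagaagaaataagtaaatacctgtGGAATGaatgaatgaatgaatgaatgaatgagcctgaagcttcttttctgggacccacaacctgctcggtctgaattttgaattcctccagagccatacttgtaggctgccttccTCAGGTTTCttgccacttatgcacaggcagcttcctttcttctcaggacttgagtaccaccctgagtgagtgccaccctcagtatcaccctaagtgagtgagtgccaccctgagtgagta
Region 8, upstream of Chd7, chr4:8646945-8647244: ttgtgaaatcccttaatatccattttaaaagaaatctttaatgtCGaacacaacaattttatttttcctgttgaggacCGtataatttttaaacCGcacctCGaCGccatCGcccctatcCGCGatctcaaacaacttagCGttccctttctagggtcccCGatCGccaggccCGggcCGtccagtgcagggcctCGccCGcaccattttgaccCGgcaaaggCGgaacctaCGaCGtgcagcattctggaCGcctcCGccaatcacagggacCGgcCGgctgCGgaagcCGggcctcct

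The 22 decreased regions covered 25541 bp. Of these, 8 were centred inside Chd7, 7 upstream of it and 7 downstream of it. Chd7 had the nearest protein-coding start for 17, which were all 8 inside the gene, all 7 downstream and 2 upstream. The other 5 lay nearer to Rab2a (3 regions) or Car8 (2 regions). Neither increased region was inside Chd7 or nearest to it. As background, 17.8% of 21924 protein-coding genes were nearest to at least 1 decreased region and 10.7% to at least 1 increased region, and on chromosome 4 the share for decreased regions was 29.3%. The median over genes with any nearest decreased region was 1.

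**Figure D1:**
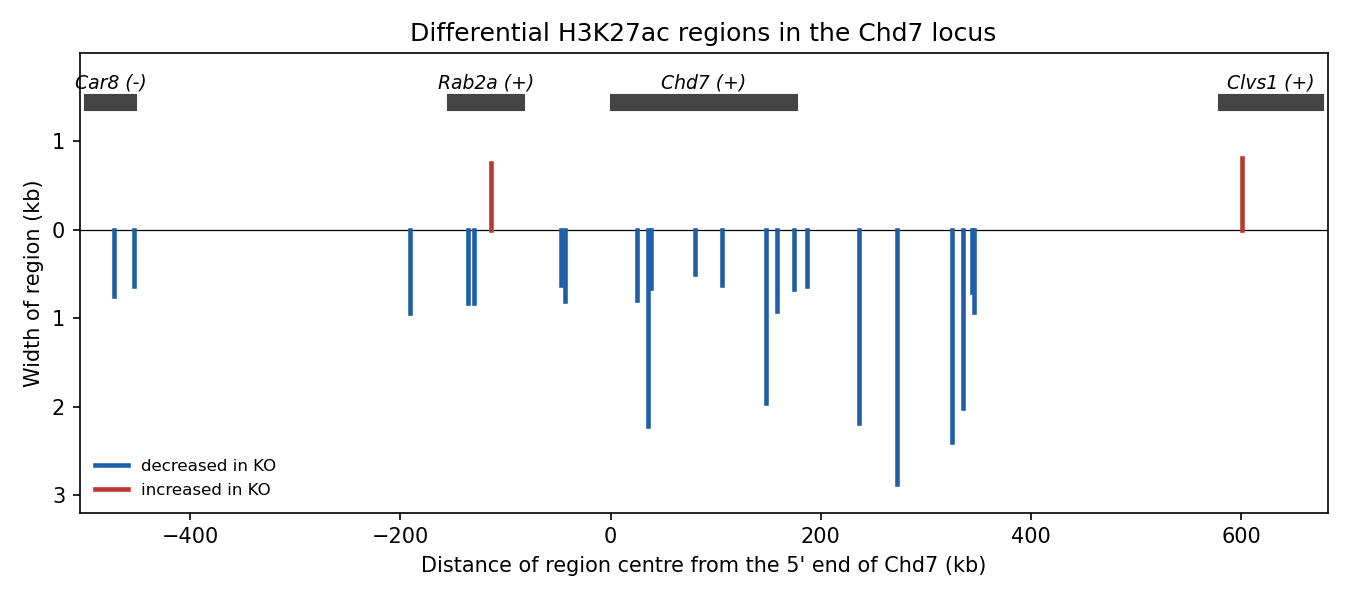
The 24 differential regions by the distance of their centre from the 5′ end of Chd7 in kb (x axis) and their width in kb (y axis, decreased regions drawn downward and increased regions upward), with protein-coding genes as bars and their strand in brackets. The 8 regions inside Chd7 and the 7 downstream of it are all decreased, 4 of the 6 regions of at least 1 kb lie downstream, and the increased regions lie at -113.3 kb and 600.5 kb.

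All 8 regions inside Chd7 were intronic by their centre. They lay in 6 of the 37 introns of its transcript with 38 exons. The first intron, which is 60.3 kb long, held 3 of them (regions 9, 10 and 11), centred 24.9, 35.3 and 38.6 kb from the 5′ end. Region 10 (chr4:8724579-8726798) was the widest inside the gene at 2220 bp and had been joined by the peak caller from 2 peaks. Its neighbours were narrower, with 798 bp for region 9 (chr4:8714951-8715748) and 662 bp for region 11 (chr4:8728701-8729362). Region 12 (chr4:8770150-8770650, 501 bp, the shortest width in either list) lay in the second intron and region 13 (chr4:8796242-8796868, 627 bp) in the third, which are 32.2 and 15.6 kb long.

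The other 3 lay in short introns of the 3′ part of the gene. Region 14 (chr4:8837194-8839149, 1956 bp) was centred in intron 15, which is 4.55 kb long. It was the only member that overlapped annotated exons of Chd7 by any base. Region 15 (chr4:8848079-8849002, 924 bp) lay in intron 23 and region 16 (chr4:8864536-8865208, 673 bp) in the last intron, 37, which are 3.18 and 1.43 kb long. The stretch between regions 12 and 14, from the second to the 15th intron, held 1 region.

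The promoter of Chd7 carried none of these regions. The 4 most upstream starts lie together, and the closest decreased centre to any of them was 23984 to 24943 bp away. No region lay within 1 kb of any of the 8 annotated starts. The closest was region 14, 2151 bp before the start of a short transcript inside the gene (position 8840322), followed by region 9, 5009 bp after another such start (position 8710340). Since the lists hold only sites called as differing, the mark at the promoter itself has no value here.

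Downstream, 7 decreased regions were spread between the end of Chd7 and Clvs1, in sequence that GENCODE M21 leaves without a gene apart from a ribosomal protein pseudogene and small or non-coding genes that none of the 7 overlapped. They covered 11756 bp, more than the 8361 bp inside the gene. Region 17 (chr4:8876912-8877548, 637 bp) lay 9253 bp past the end of the gene. Region 18 (chr4:8925980-8928167) was 2188 bp wide and region 19 (chr4:8961123-8964004), the widest of the locus, 2882 bp. Then followed a group of 4 within gaps of 0.583 to 8.04 kb. It was made of region 20 (chr4:9014212-9016610, 2399 bp), region 21 (chr4:9024651-9026668, 2018 bp), region 22 (chr4:9033928-9034633, 706 bp) and region 23 (chr4:9035217-9036142, 926 bp), which is centred 345.3 kb from the 5′ end of Chd7. Regions 19 and 20 had each been joined from 2 peaks.

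Widths differed along the locus. The median width was 2018 bp for the 7 downstream regions, 736 bp for the 8 inside the gene and 810 bp for the 7 upstream. At least 1 kb was reached by 4 of 7 downstream, 2 of 8 inside and 0 of 7 upstream. Over the locus the median was 817 bp, against 931 bp for the 789 other decreased regions of chromosome 4.

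Upstream, 2 regions lay between Rab2a and Chd7 and were nearest to Chd7. Region 7 (chr4:8642994-8643620, 627 bp) and region 8 (chr4:8646690-8647499, 810 bp) were 3.07 kb apart and centred 47.1 and 43.3 kb before the gene. GENCODE M21 has no gene there. The RefSeq annotation of the same assembly places region 7 within the long non-coding RNA Gm42253 (chr4:8638924-8644846, minus strand). It also places the whole of Gm8273, a long non-coding RNA of the minus strand (chr4:8646963-8647457), within region 8, its 5′ end included. By the same annotation, regions 10 and 11 of the first intron overlapped the long non-coding RNA Gm46841 (chr4:8717210-8731950).

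The other 5 upstream regions belonged to the neighbours by distance. Regions 4 (chr4:8554311-8555144, 834 bp) and 5 (chr4:8560243-8561066, 824 bp) lay in an intron of Rab2a. Region 3 (chr4:8498790-8499734, 945 bp) lay between Car8 and Rab2a. Regions 1 (chr4:8217853-8218603, 751 bp) and 2 (chr4:8236492-8237124, 633 bp) lay in introns of Car8, and region 2 was centred 2233 bp from the start of Car8. A gap of 262 kb without a region separated regions 2 and 3. At the limit of 500 kb, the last regions inside it were regions 1 and 2, with centres 472.2 and 453.6 kb from Chd7. The first outside it were a decreased region of 2202 bp (chr4:8149727-8151928), 539.6 kb away and also nearest to Car8, and an increased region of 824 bp (chr4:9486829-9487652), 619.6 kb away and nearest to Asph.

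Both increased regions lay in other genes. Region 6 (chr4:8576689-8577442, 754 bp) was in an intron of Rab2a, 15.6 kb past decreased region 5. Region 24 (chr4:9290499-9291310, 812 bp) was in an intron of Clvs1, 254 kb past decreased region 23. Their GC contents of 35.5% and 40.9% were below the median of 47.3% for the decreased regions of the locus. The rest of chromosome 4 differed the same way, with medians of 42.8% for increased and 49.3% for decreased regions. Between regions 6 and 24 ran 17 decreased regions without an increased one, over 392 kb, and these were the 17 nearest to Chd7. Unbroken runs of this kind were common on the chromosome, since 16 of its 50 runs of decreased regions were at least as long, the median run held 9 and the longest 106.

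Chromosome 4 as a whole was tilted the same way. It held 811 decreased and 66 increased regions, so that 7.53% were increased, the lowest share of the 21 chromosomes, against 37.4% over all others. In the locus 8.33% were increased (2 of 24, 95% Wilson interval 2.32 to 25.8%) and in the rest of chromosome 4 7.5%. The share in the locus thus lay close to that of its chromosome. An effect on the locus and one on the whole chromosome cannot be told apart in these lists.

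The locus was selected on its number of decreased regions, so the densities that follow describe that choice and are not a result. Their intervals do not allow for the selection. The locus held 18.7 decreased regions per Mb over 1.177 Mb, against 5.23 per Mb on the rest of chromosome 4, a ratio of 3.57 (95% interval 2.35 to 5.44, from the Wilson interval of the share of regions, counting error only). Within the gene body the density was 45.1 per Mb, 8.54 times that elsewhere (4.31 to 16.9). Each flank of 500 kb had 14 per Mb, 2.64 times the rest (1.27 to 5.46). By length, 2.17% of the locus was covered by decreased regions and 0.721% of the rest, a ratio of 3.01. For increased regions the ratio was 4.01 on 2 regions, with an interval of 1.08 to 14.9. The number of H3K27ac regions that did not change is not analysed here, so these densities do not say which share of the marked sites was called.

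Cut into consecutive windows of the length of the locus, chromosome 4 gave 129 windows with a median of 4 decreased regions. The Chd7 window was among 7, or 5.43%, with 22 or more. The other 6 lay 112 to 141 Mb further along the chromosome, and the highest of them held 32. Within 50 Mb of the locus, 46 windows held a median of 2 and at most 15, and the windows directly before and after it held 2 and 9. Just past that distance, the window at 54.2 Mb held 19. Only 4 protein-coding genes start in the Chd7 window, against a median of 8, while the 3 windows with most regions had 17, 20 and 27. When the window was slid along the chromosome in steps of 100 kb, 68 of 1506 positions apart from the locus held 22 or more.

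**Figure D2:**
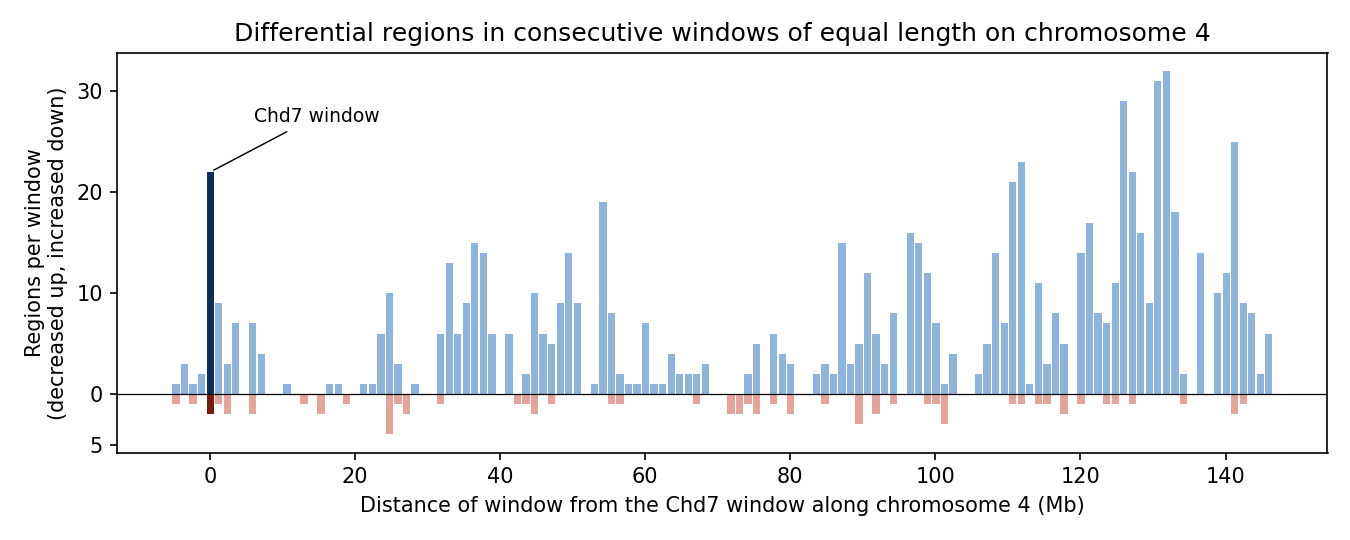
Differential regions in 129 consecutive windows of 1.177 Mb on chromosome 4, by distance from the Chd7 window in Mb (x axis), with decreased regions upward and increased regions downward as counts per window (y axis). The dark bars mark the Chd7 window with 22 decreased and 2 increased regions. No other window within 50 Mb passed 15 decreased regions, and the window at 54.2 Mb held 19. The 6 others with 22 or more lie at the far end of the chromosome.

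Spacing within the locus was uneven. Among the 17 regions nearest to Chd7 the median gap was 13618 bp, and the gaps ran from 583 to 67451 bp, of which 7 of 16 were under 10 kb. Over all 22 decreased regions of the locus the median gap was 17888 bp and the largest 261665 bp. The median gap between neighbouring decreased regions over chromosome 4 was 39343 bp. The locus was selected for its count and the 17 share a nearest gene, so shorter gaps follow from that choice. The largest gap among the 17 spanned the 5′ end of Chd7, between regions 8 and 9. Past region 23 no decreased region followed within the window.

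Among genes, Chd7 was near the top by count. With 17 nearest decreased regions it was 1 of 5 protein-coding genes of the genome with at least that many, 2 of which had more, and no other gene of chromosome 4 reached it. Plpp3, a lipid phosphate phosphatase, followed on the chromosome with 15, then Arhgef10l, a guanine nucleotide exchange factor, and Hivep3, a zinc finger protein, with 14 each. These ranks hold for the GENCODE starts of all transcripts. With only the 5′ end of each gene, or with RefSeq starts, Chd7 had 13, and no rank was made for these settings. Since long genes offer more room, genes of chromosome 4 of at least 100 kb were set side by side. Over these 145 genes the median was 0.22 decreased regions per 100 kb of gene body. Chd7 had 4.51, and the genes above it were Arhgef10l with 9.24 and Ssbp3, a single-stranded DNA binding protein, with 5.76. By count inside the gene body, Chd7 was 1 of 7 of these long genes with 8 or more, and Hivep3 held 17.

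Loci elsewhere were as dense. With the same window, Lpp, which encodes a focal adhesion protein, held 40 decreased regions on chromosome 16, or 25 per Mb and 3.16 times the rest of its chromosome. Runx1, which encodes a transcription factor of the RUNX family, held 30 on the same chromosome, or 24.5 per Mb and 3.06 times the rest. Both genes had more nearest decreased regions than Chd7, with 25 and 18. On chromosome 16, 7.8% of regions were increased, close to the share on chromosome 4. Zfhx4, a zinc finger homeobox gene on chromosome 3, had 3 regions in its window, or 2.51 per Mb and 1.42 times the rest.

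**Figure D3:**
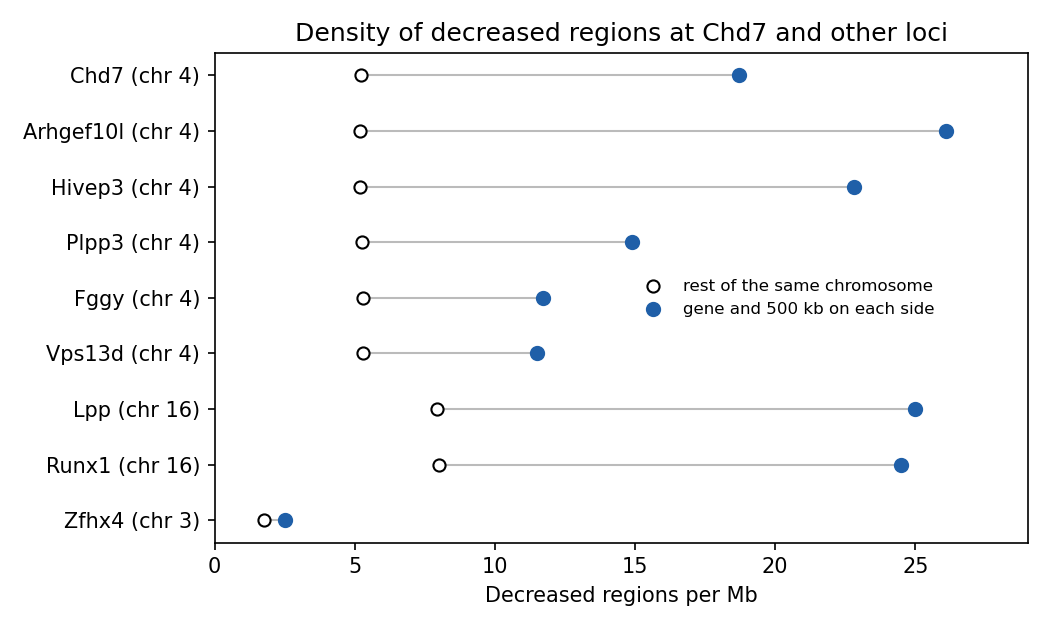
Decreased regions per Mb (x axis) in the window of each gene with 500 kb on either side (filled points) and on the rest of its chromosome (open points), for Chd7, the 5 other genes of chromosome 4 with the most nearest decreased regions, and Lpp, Runx1 and Zfhx4. Chd7 stands at 18.7 against 5.23 per Mb, below Arhgef10l (26.1), Lpp (25), Runx1 (24.5) and Hivep3 (22.8). Windows around the neighbours of Chd7 are not drawn, and the one around Rab2a, which overlaps that of Chd7, held 21.5 per Mb. The points have no replicate error.

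In base composition the decreased regions of the locus were much like others, except region 8. Median GC content was 47.3% in the locus and 49.3% on the rest of chromosome 4, and median CpG density was 10.9 and 10.8 pairs per kb. Soft-masked repeats made up a median of 12.9% and 12.8%. Region 8 held 76 CpG pairs in 810 bp, or 93.8 per kb, while the second highest of the locus (region 12) had 18 per kb. By CpG density it ranked 24 among all 7262 decreased regions with a placed position and 4 among the 811 of chromosome 4. Its GC content was only 54.6%. The ratio of CpG pairs seen to those that its C and G content would give was 1.28, the highest of all 7262 decreased regions, where the second highest was 1.08 and the median 0.166. The other 21 decreased regions of the locus had ratios of 0.0814 to 0.315. The capitals in its printed sequence show these pairs, 25 in 300 bases. CpG-dense sequence of this kind is typical of promoters that stay free of DNA methylation, and the 5′ end of the RefSeq transcript Gm8273 falls in this region. Neither methylation nor transcription was measured in these lists.

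**Figure D4:**
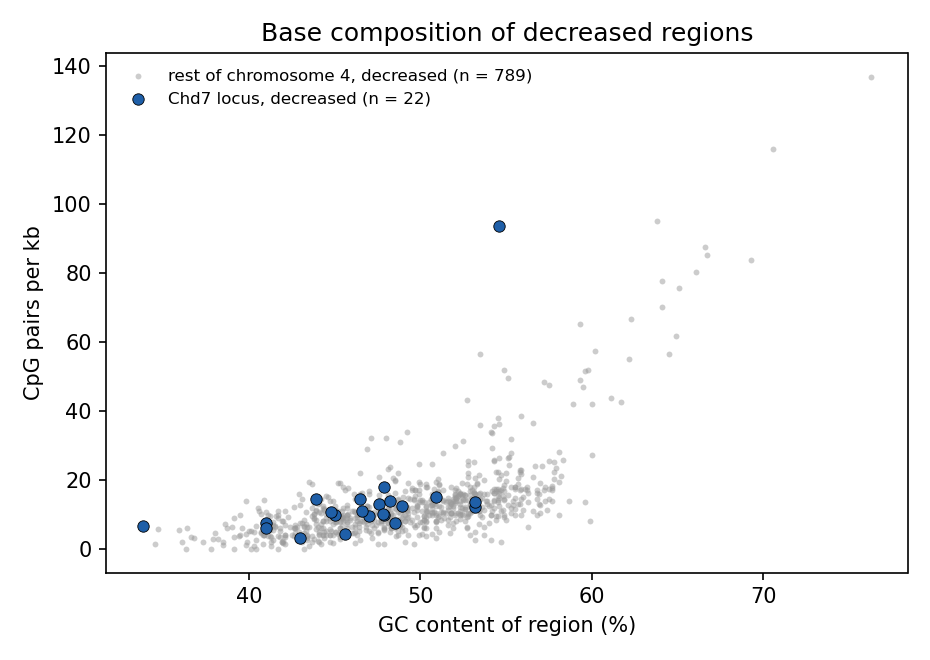
GC content in percent (x axis) against CpG pairs per kb (y axis) for the 22 decreased regions of the Chd7 locus (blue) and the 789 on the rest of chromosome 4 (grey), 1 point per region. Region 8 stands apart at 54.6% GC and 93.8 CpG pairs per kb, while the other 21 have 3.16 to 18 pairs per kb and lie among the grey points.

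Short sequence motifs were searched on both strands as exact letters. They were the E-box CAGCTG bound by MyoD and related factors, AP-1 (TGANTCA), TEAD (CATTCC), RUNX (TGTGGT), MEF2 by its 10-letter consensus, the MEF3 element TCAGGTTTC bound by sine oculis homeobox proteins, and the ERR element TNAAGGTCA of estrogen-related receptors. In the central 500 bp, 5 of 22 regions held an E-box (22.7%), against 40.9% on the rest of chromosome 4 and 38% over all other decreased regions. RUNX letters were in 9 of 22 (40.9%, against 35.1% and 36.6%). TEAD letters were in 4 (18.2%, against 26.5% and 27.3%), AP-1 in 3 (13.6%, against 16.5% and 17.9%) and MEF2 in 1 (4.55%, against 4.94% and 5.32%). ERR letters were in 0 (against 4.18% and 3.31%). MEF3 was in 1, region 21 (4.55%, against 0.887% and 0.87%). With 22 regions, 1 region is 4.55%, so these shares are coarse, and they are descriptions with no test.

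Over their whole width the 22 regions held 65 sites in 20 regions, with 1 pair that overlapped. There were 22 E-boxes in 11 regions, 22 RUNX sites in 12, 9 AP-1 sites in 6, 7 TEAD sites in 6, 4 MEF2 sites in 4, 1 MEF3 site and 0 ERR sites. Region 19, the widest, had the most, with 11 sites, 5 of them E-boxes. Wider regions offer more room for sites, and these whole-width counts were not set beside other decreased regions. Of the AP-1 sites, 3 lay in region 3 and 2 in region 1, both upstream, and the rest in regions 14, 19, 21 and 22. No region inside the gene had AP-1 letters in its central 500 bp. The following are examples of matches to motifs of muscle factors in the downstream regions, not a full list. They are shown with 12 bases on each side, the motif in capitals, on the plus strand. Those in regions 18 and 19 lie outside the central 500 bp used for the shares.
E-box in region 19, downstream, chr4:8963070-8963075: gattccccaggaCAGCTGctttaggtgttt
First E-box in region 23, chr4:9035598-9035603: gagcctctgtgaCAGCTGtgagccctaggc
Second E-box in region 23, chr4:9035781-9035786: gtctgtattgggCAGCTGtgtgctggactc
MEF2 in region 18, downstream, chr4:8926458-8926467: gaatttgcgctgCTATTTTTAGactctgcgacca
MEF3 in region 21, downstream, chr4:9025690-9025698: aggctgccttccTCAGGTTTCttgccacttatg
Region 23 was the only member with more than 1 E-box in its central 500 bp. Among the decreased regions, regions 14, 18 and 19 each had at least 1 E-box and a MEF2 site over their whole width. Each match is a match of letters, and binding was not measured.

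Which gene a downstream region was given to depended on the annotation. The 4 farthest (regions 20 to 23) were nearest to Chd7 through the start of a short 3′ transcript of the gene (position 8855231), at 160180 to 180448 bp. RefSeq starts Clvs1 at position 9144745, before its GENCODE start at 9269293. With RefSeq protein-coding starts these 4 went to Clvs1, at 109066 to 129334 bp, and 13 were left to Chd7. When starts of all GENCODE genes were allowed, 9 stayed with Chd7 and 6 went to the pseudogene Rps18-ps2 and 2 to the pseudogene Gm11809. The 8 regions inside Chd7 did not depend on this choice of starts for being inside the gene.

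Among the 9 Chd genes, Chd7 had the most decreased regions, as its selection implies. Decreased regions were nearest to 3 of the 9, with 17 at Chd7 and 1 each at Chd4, the helicase of the NuRD complex, and Chd6. Increased regions were nearest to 3, with 11 at Chd2 and 1 each at Chd1 and Chd6. Chd3, Chd5, Chd8 and Chd9 had neither. Over all protein-coding genes, 17.8% had a nearest decreased and 10.7% a nearest increased region, and with 9 genes, of which Chd7 was selected on its regions, nothing is read from the family's counts. The Chd4 region (chr6:125088513-125090183, 1671 bp) and the decreased Chd6 region (chr2:160993768-160995090, 1323 bp) were each centred under 10 kb from a start of the gene, at 6633 and 9383 bp. Chd2 lies on chromosome 7, where 97.7% of regions were increased, and of its 11 regions 3 were centred within 1 kb of an annotated start of the gene, at 296, 487 and 567 bp. At Chd7 none of 17 was. Chd5 lies on chromosome 4 as well and had no nearest region, though its window held 8 decreased ones, or 7.61 per Mb and 1.43 times the rest.

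**Figure D5:**
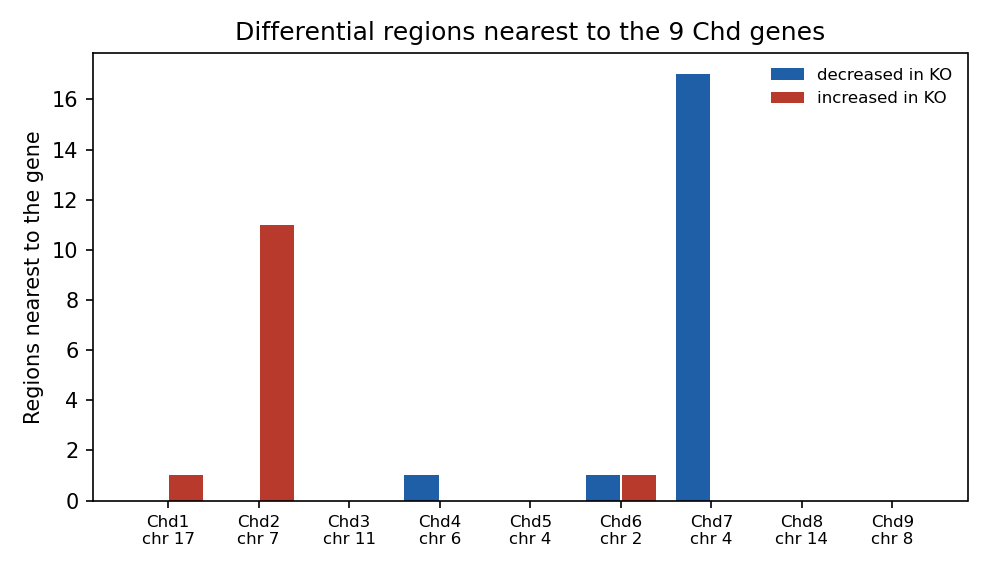
Number of differential regions (y axis, counts) for which each of the 9 Chd genes had the nearest protein-coding start (x axis, with its chromosome), decreased in blue and increased in red. Chd7 had 17 decreased regions and Chd2 11 increased ones, and the others had at most 1 in each direction. The counts have no replicate error.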

How the data were processed

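H3K27ac and IgG CUT&RUN libraries came from Nrip1KO and control myotubes. The authors aligned reads to mm10 with BWA-MEM2 2.2.1, called broad peaks with HOMER 4.11 and kept regions with a 2-fold or larger difference. How replicates and IgG libraries entered the calls is not given in the sources used here, and the labels and the methods name different H3K27ac antibodies. The deposited lists give positions, and their deposited score column holds 1 constant value, so it was not used. A difference in depth, reaction efficiency or DNA copy number between cultures would pass into the calls.

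Positions are counted from 1. Of 11180 regions, 1 on unplaced sequence was left out of every step by position. Genes and starts came from GENCODE M21 (21951 protein-coding genes), RefSeq names and sequence from GRCm38.p6. Densities used 152.1 Mb of chromosome 4 without N. The motif shares used the central 500 bp. Counts were made with Python 3.11.15, numpy 2.4.6, pandas 2.3.3 and scipy 1.17.1, and the placement steps were tested on simulated positions. Intervals are Wilson 95% intervals and cover counting error only. They treat regions as independent and do not allow for the selection of the locus.

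The members and gene lists were chosen with earlier results of these data known. By rule, the text names Chd7, its neighbours, the 5 further genes of chromosome 4 with the most nearest decreased regions, 4 other loci and the list genes. Ssbp3, Asph and the non-coding genes and pseudogenes of the locus were named after their values were seen. Sequence from inside the gene is not reported here. No test was run, since no value per library was at hand.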

Additional observations from a re-analysis of the deposited data

How the results depend on the processing

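Of 31 alternative values, 15 stayed within the limit of 1.5 times the reported value, 16 moved past it and 0 changed direction. The 22 decreased regions of the locus became 13 with flanks of 100 kb, 14 when regions within 10 kb of each other were joined and 6 when only regions of at least 1 kb were kept. The 8 inside the gene became 5 when joined and 2 at 1 kb. The 17 nearest to Chd7 became 9 with the starts of all annotated genes, 10 when joined and 6 at 1 kb. RefSeq starts, chosen after seeing the data, gave 13. The 2 increased regions became 0 with flanks of 100 kb, 1 with 250 kb and 0 at 1 kb. The density ratio of 3.57 became 8.54 for the gene body alone and 6.55 with flanks of 100 kb. It was 5.65 with 250 kb and 2.19 with 1 Mb. With only regions of at least 1 kb it was 2.12. The locus was selected on its decreased regions, so a lower ratio in wider windows follows from that choice and is not a result. No paired analysis was possible because the lists hold no value per library, and for the same reason no library could be left out. Depth is unknown.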

Other observations

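Subunits of the BAF and PBAF remodellers, SWI/SNF complexes with which CHD7 is known to work, were mostly without regions. Of 12 genes, 1 had a nearest decreased region and 1 a nearest increased one, beside 17.8% and 10.7% of all protein-coding genes, so these counts are no result about the list. In both cases the gene was Arid1b, with 15 decreased and 1 increased region nearest to it on chromosome 17. Of the 15 decreased regions of Arid1b, 4 lay inside the gene and 11 outside it, the farthest 587385 bp from a start.

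Of 15 genes of neural crest and organ development that are known targets or partners of CHD7, 6 had a nearest decreased region, 9 had a nearest increased one and 6 had neither, and every gene with a decreased region also had an increased one. Sema3e, a guidance cue, had 8 decreased regions, all inside the gene, and 1 increased region outside it. Sox4 had 7 decreased and 1 increased, and Sox11 had 5 of each, both transcription factors of the SOXC group. Sox9, which drives cartilage formation, had 6 increased regions and no decreased one, at distances of 134641 to 698953 bp. Read against the background of 17.8% and 10.7% of protein-coding genes, these shares rest on 15 genes, and no test was made. A nearest region need not be close, since distances in the list ran from 108 bp, at Sema3a, to 698953 bp, at Sox9. The only regions of Sox2 and Jag1 lay 139532 and 304552 bp from a start.

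Pla2g4a, a cytosolic phospholipase A2 on chromosome 1, gave the opposite picture to Chd7. It had 14 nearest increased regions, 13 of them inside the gene, and 0 decreased regions in its window.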
